A study of Mus musculus with 7 samples.

Results

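The transcripts described here are those of 3 FOXO transcription factors, Foxo1, Foxo3 and Foxo4, and of 7 classic FOXO targets, Pdk4, Fbxo32, Txnip, Sesn1, Sesn3, Pik3ip1 and Ccng2. These 10 genes were chosen by symbol from a table of 24353 rows, and all 10 were found. The table writes symbols in capitals (FOXO1, FOXO3, FOXO4, PDK4, FBXO32, TXNIP, SESN1, SESN3, PIK3IP1 and CCNG2), and mouse spelling is used below. The RNA came from the endometrial epithelium of oophorectomized C57BL/6 female mice whose ovaries were removed at 6 to 7 weeks of age. All 7 libraries therefore share the loss of ovarian estrogen, and no group had intact ovaries. Of 18 randomized mice, 6 per arm received vehicle, tamoxifen at 0.5 mg per day, or that dose of tamoxifen together with 30 mg/kg of alpelisib daily, for 28 days. Another group of 2 mice carried a pellet of 0.01 mg estradiol for the same 28 days. The table holds 1 vehicle library, 2 estradiol libraries, 2 tamoxifen libraries and 2 libraries of tamoxifen plus alpelisib. The label of the vehicle library carries no mouse number, so it may hold RNA of 1 mouse or of several, and vehicle values have no SD. The labels name the other 6 libraries as separate mice.

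FOXO proteins are forkhead transcription factors that AKT phosphorylates and sends out of the nucleus when insulin or growth factors activate PI3K. When the kinase is inhibited, FOXO proteins return to the nucleus and induce genes of fuel choice, protein breakdown, stress defense and cell cycle exit. In the endometrium Foxo1 is best known as a regulator of decidualization and of the receptive luminal epithelium. Tamoxifen is a selective estrogen receptor modulator with partial agonist action in the uterus. Alpelisib is an inhibitor selective for PI3K alpha. The comparison of both drugs with tamoxifen alone asks what inhibition of this kinase changes in the epithelium exposed to tamoxifen.

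Values are FPKM, which divides a gene's fragments by transcript length and library size, so levels can be compared between genes per length. Depth was estimated from the lowest step of values among genes that have 1 annotated transcript. With that step read as 1 fragment, the libraries held between 16.3 and 19.2 M fragments. In estradiol 2 only 16 genes sat on that step, against 66 to 91 in the other 6 libraries, and its ribosomal RNA precursor Rn45s was at 2280 FPKM against 189 to 764. Epithelial markers (Krt8, Krt18, Epcam and 8 others) summed to 7360 FPKM in vehicle, and 3240 and 2710 with estradiol. The sums were 4120 and 5720 with tamoxifen, and 6180 and 6690 with both drugs. Of the 11, all tested, 1 was higher and 0 lower with both drugs than with tamoxifen, beside 6.93% and 4.81% of all genes. With estradiol against vehicle 1 was higher and 5 lower, beside 22.7% and 12.8% of all genes. With both drugs against estradiol 6 were higher and 0 lower, beside 15.7% and 37.5%. Stromal markers summed to 269 FPKM in vehicle, 181 and 191 with estradiol, 56 and 56.2 with tamoxifen, and 121 and 129 with both drugs. Within this sum, Dcn alone was at 31.7 and 30.9 FPKM with tamoxifen and 86.8 and 93.1 with both drugs. Of 11 tested stromal markers 3 were higher and 1 lower with both drugs than with tamoxifen, beside 6.93% and 4.81% of all genes. Their median difference in log2(FPKM + 1) was -0.18, so the larger sum does not describe the list as a whole. In bulk RNA, fewer cells of a type and less RNA per cell cannot be told apart. Differences are given on the scale of log2(FPKM + 1) ± SE with their adjusted p from limma-trend, two-sided, over 12314 genes.

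Promoters of 8 of the 10 genes were matched by symbol in the RefSeq table (build GRCm38.p6), which gives 300 bases per start site, 250 before it and 50 after it, and 2 start sites for Sesn1. Both strands were searched for the FOXO-binding element, written GTAAACA or TGTTTAC, and for the insulin response core, written CAAAACA or TGTTTTG. The 3 windows below are the only ones that held a match. Capitals mark the match, and each window reads 5′ to 3′ on the plus strand, which is the strand of the gene.
Txnip, chr3:96557786-96557892: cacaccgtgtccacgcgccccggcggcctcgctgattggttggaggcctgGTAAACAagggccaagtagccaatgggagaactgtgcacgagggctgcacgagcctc
Sesn1, chr10:41810584-41810613: agaaccttctacTGTTTACcagccttttgg
Ccng2, chr5:93267507-93267572: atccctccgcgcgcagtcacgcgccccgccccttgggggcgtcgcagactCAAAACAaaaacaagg

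The Txnip match begins 121 bases before the start site and the Ccng2 match 16 bases before it. The Sesn1 match begins at base 23 after the first of its start sites. The FOXO-binding element occurs in 3.65% of all 32851 promoters in the table and the insulin response core in 6.28%. The promoters of Foxo1, Foxo3, Pdk4, Pik3ip1 and Sesn3, and the second promoter of Sesn1, held neither set of letters, which says nothing of binding elsewhere.

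Adding alpelisib to tamoxifen raised 7 of the 10 transcripts and lowered 0. Over all genes 6.93% passed upward and 4.81% downward in this comparison (1445 of 12314, or 11.7%, in either direction). Those that rose were Foxo1, Pdk4, Fbxo32, Sesn1, Sesn3, Pik3ip1 and Ccng2, by 0.82 to 1.36 on the log2 scale. Among them, Pdk4 reached 1 FPKM only in vehicle and the alpelisib libraries, so a difference was built into its being tested. Foxo3, Foxo4 and Txnip did not pass. The median difference of the 10 was 0.94, against -0.03 for all genes tested. The 10 genes were chosen with earlier results of these data known, so this contrast is a description and not an independent test. Calls in this comparison rest on both alpelisib libraries: without either of them 0 of the 10 passed, as did only 18 or 14 of all genes. The 10 differences were still positive in both cases, with a median of 0.90 in the lower case. Without tamoxifen 1 only 2 passed, Foxo1 and Pdk4, with 2.45% of all genes called.

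Against vehicle, tamoxifen lowered Foxo1, Foxo4, Pdk4, Sesn1 and Sesn3 and raised Foxo3 and Txnip. Those 5 lower and 2 higher calls stand beside 24.1% of all genes lower and 14.9% higher (39% called). Without tamoxifen 2, 4 of the 7 calls were left, Foxo1, Pdk4, Sesn1 and Txnip, with 31.7% of all genes called. With both drugs against the same vehicle library, Foxo3, Fbxo32, Txnip and Ccng2 were higher, and 0 of the 10 were lower, beside 13.1% and 21.8% of all genes (34.9% called). Estradiol raised Foxo3 and Sesn3 and lowered Pdk4 and Sesn1, beside 22.7% of genes higher and 12.8% lower (35.5% called). Without either alpelisib library, which enter here only through the shared spread, Foxo3 and Pdk4 alone remained called for estradiol. The comparisons share libraries, so a fall with tamoxifen and a rise when alpelisib is added are not independent observations.

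The scaling between libraries bears on directions. Under median-of-ratios scaling the median difference of all genes was 0.01 in place of -0.12 when tamoxifen was compared with vehicle, and 48.3% in place of 38.2% of the called genes were higher. For estradiol and vehicle the median was 0 in place of 0.12, with 48.7% in place of 64% higher. For both drugs and vehicle it was -0.01 in place of -0.15, with 50.1% in place of 37.7% higher. Tamoxifen set against estradiol gave -0.01 in place of -0.26, with 50.5% in place of 25.4% higher, and both drugs against estradiol gave 0 in place of -0.26, with 51.2% in place of 29.6% higher. Between the alpelisib and tamoxifen groups the median was -0.02 in place of -0.03, and the count of 7 higher and 0 lower of the 10 was reached under both scalings.

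**Figure D1:**
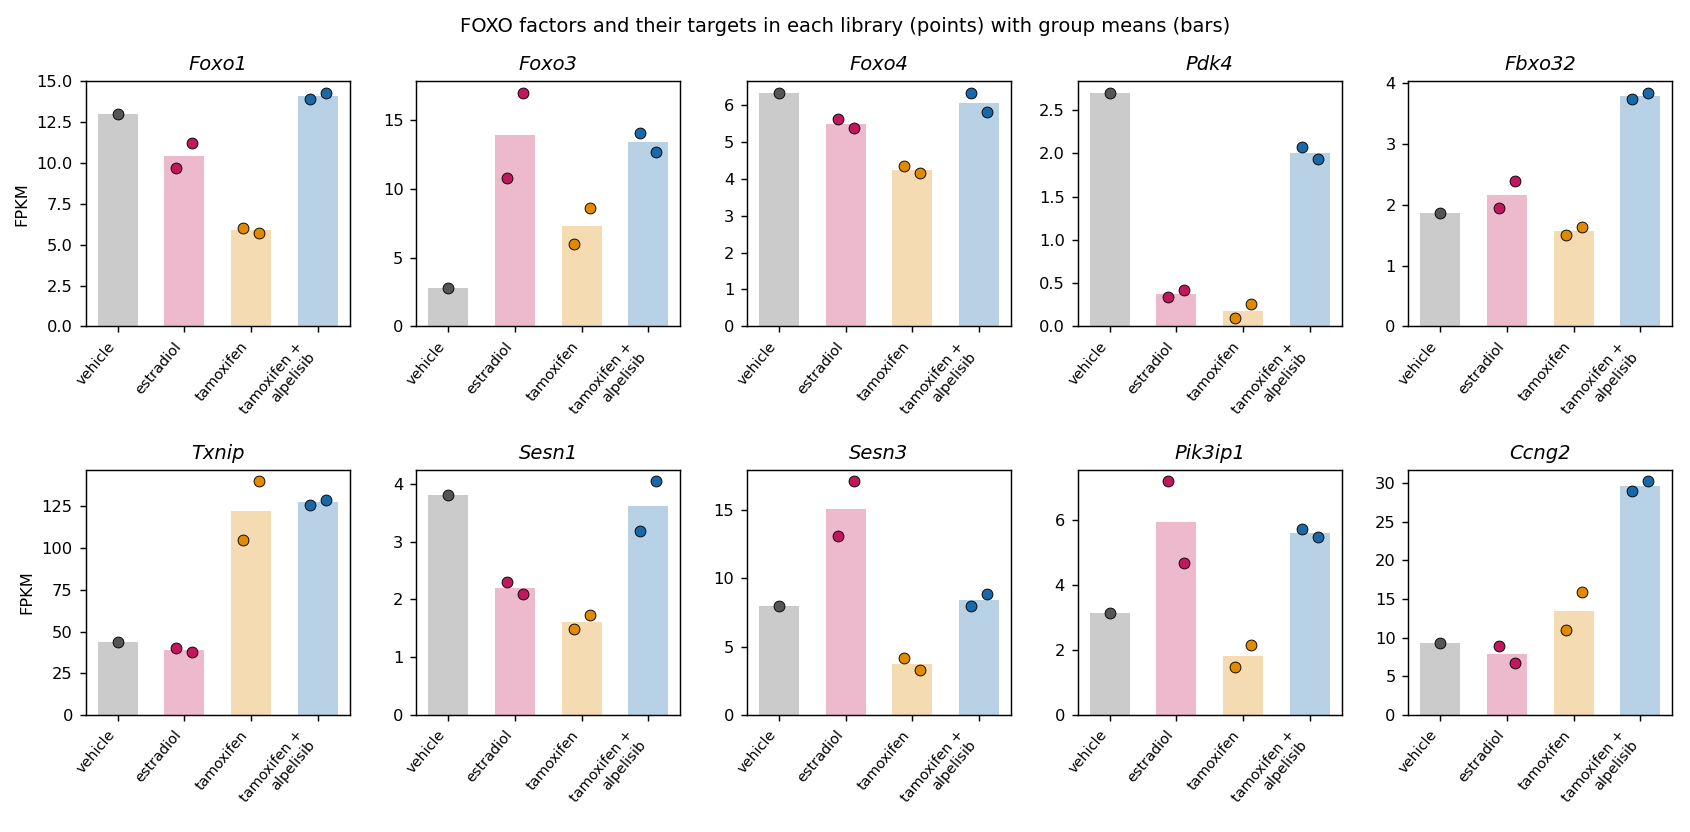
FPKM of the 10 transcripts in each of the 7 libraries (points) with group means (bars), 1 panel per gene with its own vertical axis from 0. In 9 panels both alpelisib libraries stand above both tamoxifen libraries, and Txnip is the exception. These 2 groups did not overlap, in either direction, for 64.5% of all genes tested.

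**Figure D2:**
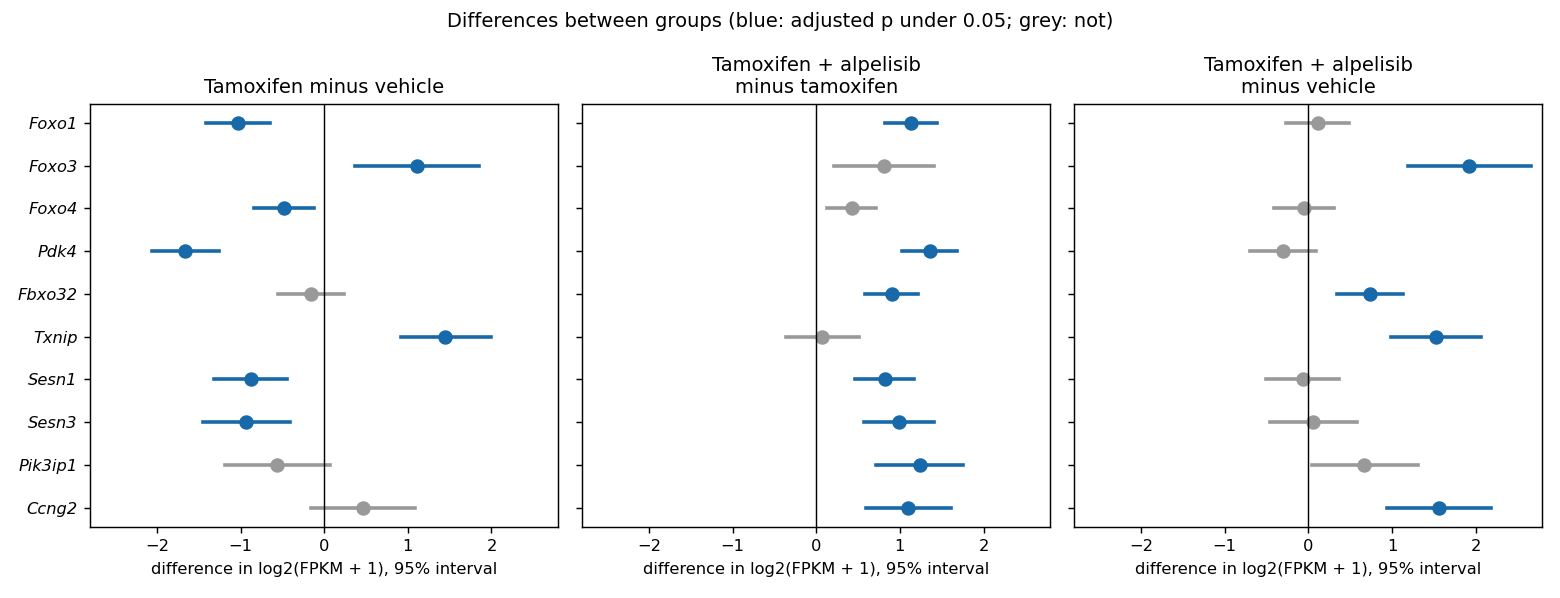
Differences in log2(FPKM + 1) between groups with 95% intervals, for tamoxifen minus vehicle, both drugs minus tamoxifen, and both drugs minus vehicle; blue marks an adjusted p under 0.05. Foxo1, Pdk4, Sesn1 and Sesn3 lie below 0 at left, above 0 in the middle and have intervals that include 0 at right.

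Among the factors, Foxo1 stood at 13 FPKM in vehicle, 9.7 and 11.2 with estradiol, 6.03 and 5.74 with tamoxifen, and 13.9 and 14.3 with both drugs. The tamoxifen libraries were the lowest of all 7, and the alpelisib libraries lay just above vehicle. Foxo1 fell with tamoxifen (-1.03 ± 0.16, adjusted p = 0.00377) and rose when alpelisib was added (1.13 ± 0.13, adjusted p = 0.00644), a ratio of mean FPKM of 2.4. With both drugs its difference from vehicle was 0.11, with a 95% interval from -0.27 to 0.49.

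Foxo3, the factor most tied to long-lived and quiescent cells, had a different order. It stood at 2.8 FPKM in vehicle, 10.8 and 17 with estradiol, 5.97 and 8.63 with tamoxifen, and 14.1 and 12.7 with both drugs. Vehicle was the lowest library by this measure, and every treated library lay above it. Foxo3 rose with estradiol (1.94 ± 0.30, adjusted p = 0.00544), with both drugs (1.92 ± 0.30, adjusted p = 0.0051) and with tamoxifen (1.11 ± 0.30, adjusted p = 0.0299). The last call was lost without tamoxifen 2, without either alpelisib library and with no filter on low values, with adjusted p up to 0.096 over the alternatives. The 0.81 ± 0.25 between both drugs and tamoxifen did not pass (adjusted p = 0.0878, 95% interval 0.21 to 1.41), although the 2 groups did not overlap. Groups did not overlap for 9 of the 10 members in this comparison and for 64.5% of all genes.

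Foxo4 varied least, from 4.14 to 6.32 FPKM. It was at 6.32 in vehicle, 5.6 and 5.36 with estradiol, 4.34 and 4.14 with tamoxifen, and 6.3 and 5.81 with both drugs. The fall with tamoxifen was small (-0.48 ± 0.15, adjusted p = 0.0442) and was lost without either tamoxifen library, without either alpelisib library, and with median-of-ratios or quantile scaling. Adding alpelisib gave 0.43 ± 0.12, which did not pass (adjusted p = 0.0731).

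The sum of the 4 FOXO transcripts, with Foxo6 included, was 24.3 FPKM in vehicle, 26.9 and 34.3 with estradiol, 18 and 20.8 with tamoxifen, and 35.9 and 34.9 with both drugs. Its makeup differed between libraries as well. Foxo1 gave 53.7% of the sum and Foxo3 11.5% in vehicle. With both drugs Foxo1 gave 38.8% and 40.9%, and Foxo3 39.3% and 36.4%. Foxo1 and Foxo3 were thus about level in the alpelisib libraries, while Foxo1 was far above Foxo3 in vehicle. Foxo6, which is known mainly from brain, stayed between 0.747 and 2.34 FPKM and did not pass between both drugs and tamoxifen (-0.08 ± 0.17, adjusted p = 0.815).

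**Figure D3:**
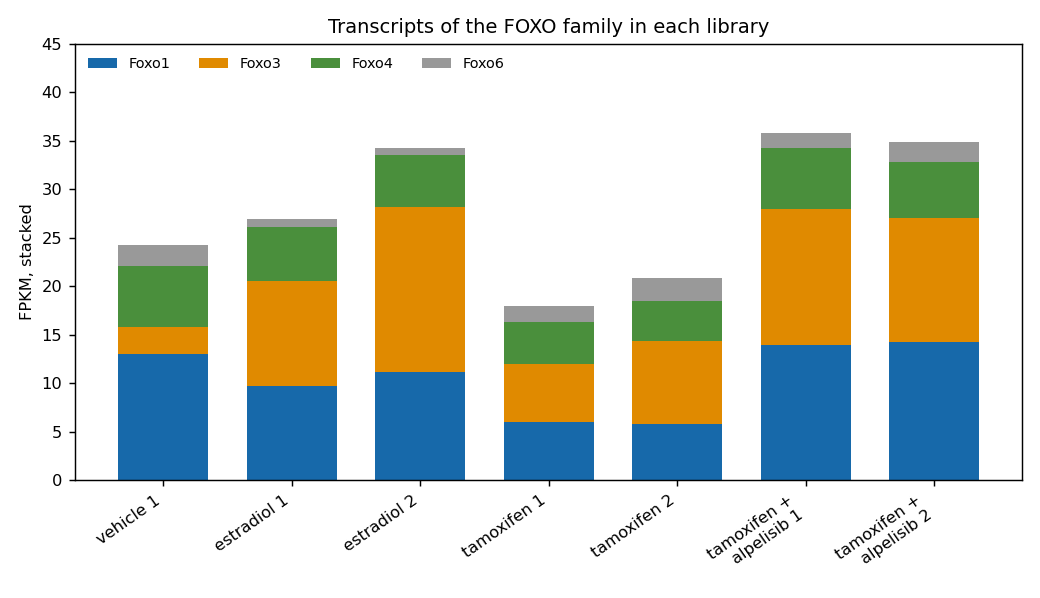
Stacked FPKM of Foxo1, Foxo3, Foxo4 and Foxo6 in each library. The tamoxifen columns are the lowest at 18 and 20.8, the alpelisib columns reach 35.9 and 34.9, and the Foxo3 block is narrowest in vehicle at 2.8.

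Pdk4 encodes a kinase that switches off pyruvate dehydrogenase and so spares glucose for fat oxidation. It had the lowest mean level of the 10 genes. It stood at 2.7 FPKM in vehicle, 0.343 and 0.418 with estradiol, 0.094 and 0.256 with tamoxifen, and 2.07 and 1.94 with both drugs. Vehicle and the alpelisib libraries formed a high set and the other 4 libraries a low set. At the estimated depth the tamoxifen values correspond to about 6 and 15 fragments on a transcript of 3484 bases, against 110 to 181 in the high set. Pdk4 was the only member under 1 FPKM in any library, and it entered the test through its 3 high libraries, so a difference was built into its being tested. It fell with tamoxifen (-1.66 ± 0.16, adjusted p = 0.000763) and with estradiol (-1.42 ± 0.16, adjusted p = 0.00205), and rose with alpelisib (1.36 ± 0.13, adjusted p = 0.00487). The ratio of mean FPKM for alpelisib added to tamoxifen was 11.4, since the pseudocount shrinks the fold of such low values. With a pseudocount of 0.1 the fall with tamoxifen was -3.41 in place of -1.66.

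Of the other pyruvate dehydrogenase kinases, Pdk2 had the same directions as Pdk4, and Pdk1 and Pdk3 had others. Pdk2 stood at 15.8 FPKM in vehicle, 7.01 and 7.79 with estradiol, 3.04 and 2.02 with tamoxifen, and 5.92 and 5.31 with both drugs. It fell with tamoxifen (-2.26 ± 0.21, adjusted p = 0.000641), rose with alpelisib (0.92 ± 0.17, adjusted p = 0.0249) and remained under vehicle (-1.34 ± 0.21, adjusted p = 0.00514). Pdk1 rose with tamoxifen (1.36 ± 0.19, adjusted p = 0.00269), from 1.79 in vehicle to 6.78 and 5.59, and was at 7.11 and 7.64 with both drugs. Pdk3 fell with tamoxifen (-1.48 ± 0.23, adjusted p = 0.00387) and was at 1.36 and 2.2 FPKM with both drugs. Pdk4 was thus a minor transcript of the family, at most 12.5% of its sum in any library.

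Of the phosphatases that reverse these kinases, Pdp1 rose with alpelisib from 1.3 and 1.05 to 5.44 and 5.11 FPKM (1.53 ± 0.13, adjusted p = 0.0038). It had fallen with tamoxifen from 5.1 (-1.49 ± 0.16, adjusted p = 0.00106). Pdp2 reached 1 FPKM only in vehicle and with estradiol, so a difference was built into its being tested. It fell with tamoxifen (-2.03 ± 0.21, adjusted p = 0.000989). With both drugs it was at 0.207 and 0.358 FPKM, a difference from tamoxifen of -0.60 ± 0.17 that did not pass (adjusted p = 0.0785). Without either alpelisib library 0 of the 3 calls that these paralog genes had for alpelisib were left.

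Txnip, which binds thioredoxin and limits glucose uptake, had the highest mean level of the 10 and was higher in all 4 libraries with tamoxifen. It was at 43.6 FPKM in vehicle, 40.5 and 37.7 with estradiol, 105 and 140 with tamoxifen, and 126 and 129 with both drugs. The 4 libraries with tamoxifen lay far above the other 3, and those with alpelisib fell between the 2 tamoxifen values. Txnip rose with tamoxifen against vehicle (1.45 ± 0.22, adjusted p = 0.00374). Adding alpelisib gave 0.07 ± 0.18 (adjusted p = 0.832), with a 95% interval from -0.36 to 0.51.

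Txnip belongs to the alpha arrestins, and its nearest relatives differed. Arrdc4, which like Txnip is known to answer to glucose through Mondo factors, was at 71.4 FPKM in vehicle, 12.7 and 9.77 with estradiol, 54 and 68.8 with tamoxifen, and 66.2 and 75.3 with both drugs. Arrdc4 fell with estradiol (-2.58 ± 0.24, adjusted p = 0.000998), where Txnip had a difference of -0.15 ± 0.22 (adjusted p = 0.625). Arrdc2 rose with tamoxifen from 0.755 to 4.47 and 6.94 FPKM (1.91 ± 0.24, adjusted p = 0.00202). Arrdc1 and Arrdc3 did not pass for alpelisib against tamoxifen, with adjusted p of 0.831 each.

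Ccng2, a cyclin that restrains the cell cycle, reached its highest level with both drugs. It was at 9.35 FPKM in vehicle, 8.97 and 6.73 with estradiol, 11 and 15.9 with tamoxifen, and 29 and 30.2 with both drugs. The alpelisib libraries stood apart from all 5 others. Ccng2 rose with alpelisib against tamoxifen (1.10 ± 0.21, adjusted p = 0.0253), against vehicle (1.56 ± 0.26, adjusted p = 0.00585) and against estradiol (1.80 ± 0.21, adjusted p = 0.000974). The first of these calls was lost without tamoxifen 1, without either alpelisib library, with no filter on low values and with a replicate block. The other 2 held in every alternative tried. Its paralog Ccng1, a p53 target, had 14.6 FPKM in vehicle. It had 20.7 and 17.3 under tamoxifen and 15.1 and 14.4 under both drugs, which did not pass (-0.34 ± 0.14, adjusted p = 0.162).

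Fbxo32, the muscle atrophy ubiquitin ligase atrogin-1, was likewise highest with both drugs. It was at 1.87 FPKM in vehicle, 1.94 and 2.39 with estradiol, 1.5 and 1.64 with tamoxifen, and 3.74 and 3.84 with both drugs. It rose against tamoxifen (0.90 ± 0.13, adjusted p = 0.0125) and against vehicle (0.74 ± 0.16, adjusted p = 0.0164), and tamoxifen alone gave -0.16 ± 0.16 against vehicle (adjusted p = 0.473). The first call was lost without tamoxifen 1, and both were lost without either alpelisib library. Trim63, the other atrophy ligase, had at most 0.126 FPKM in any library and was not tested.

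The sestrins are stress proteins that restrain mTORC1 and support antioxidant defense. Sesn1 was at 3.81 FPKM in vehicle, 2.3 and 2.1 with estradiol, 1.49 and 1.73 with tamoxifen, and 3.18 and 4.04 with both drugs. The tamoxifen values were the lowest, and vehicle lay between the alpelisib values. Sesn1 fell with tamoxifen (-0.88 ± 0.18, adjusted p = 0.0108) and rose with alpelisib (0.82 ± 0.15, adjusted p = 0.0223). The latter call was lost without any 1 of the 4 libraries compared, with no filter on low values and with a replicate block.

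Sesn3, the sestrin most closely tied to FOXO, was at 8.02 FPKM in vehicle, 13.1 and 17.1 with estradiol, 4.17 and 3.34 with tamoxifen, and 7.98 and 8.88 with both drugs. Estradiol gave the highest values and tamoxifen the lowest, with vehicle between the 2 alpelisib libraries. It fell with tamoxifen (-0.93 ± 0.21, adjusted p = 0.0167), a call lost without tamoxifen 2 and with quantile normalization. It rose with alpelisib (0.99 ± 0.17, adjusted p = 0.0208), a call lost without any 1 of the 4 libraries, with no filter on low values and with a replicate block. Sesn2, which answers mainly to the integrated stress response and was not among the 10, also fell with tamoxifen (-1.05 ± 0.19, adjusted p = 0.00719) and rose with alpelisib (1.27 ± 0.16, adjusted p = 0.00768). Its level was 4.89 FPKM in vehicle and 4.57 and 5.79 with estradiol, then 1.71 and 1.98 under tamoxifen, against 5.43 and 6.31 under both drugs. Unlike Sesn3 it did not pass for estradiol against vehicle (0.06 ± 0.19, adjusted p = 0.827), and the difference between the genes was not tested. The 3 sestrins together summed to 16.7 FPKM in vehicle and to 7.37 and 7.06 under tamoxifen. Their sum was 16.6 and 19.2 in the alpelisib libraries and 19.9 and 25 in the estradiol libraries.

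Pik3ip1 is a transmembrane protein that binds the PI3K catalytic subunit and lowers its activity, so it acts upstream of FOXO as well as being its target. It was at 3.13 FPKM in vehicle, 7.19 and 4.69 with estradiol, 1.48 and 2.15 with tamoxifen, and 5.72 and 5.48 with both drugs. The tamoxifen libraries were lowest, and both alpelisib libraries lay above vehicle. It rose with alpelisib (1.24 ± 0.21, adjusted p = 0.0195, a ratio of mean FPKM of 3.08). The call was lost without tamoxifen 1, without either alpelisib library, with no filter on low values and with a replicate block. Tamoxifen against vehicle gave -0.56 ± 0.26 (adjusted p = 0.136). Against vehicle, both drugs gave 0.67 ± 0.26, which did not pass (adjusted p = 0.0917) but did with median-of-ratios or quantile scaling.

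Tamoxifen was also compared with estradiol. Of the 10 transcripts, 4 were lower and 2 higher with tamoxifen than with estradiol, beside 36.2% and 12.3% of all genes (48.5% called), so the count was near the background. Sesn3 was lower (-1.75 ± 0.17, adjusted p = 0.000697), as were Pik3ip1 (-1.29 ± 0.21, adjusted p = 0.00423) and Foxo1 (-0.73 ± 0.13, adjusted p = 0.00515). The Foxo1 call was lost with median-of-ratios scaling (adjusted p = 0.0508). Foxo3 was lower too (-0.83 ± 0.25, adjusted p = 0.0332), a call lost without estradiol 2, tamoxifen 1 or either alpelisib library and under both scalings. Txnip was higher with tamoxifen (1.60 ± 0.18, adjusted p = 0.00105) and Ccng2 as well (0.70 ± 0.21, adjusted p = 0.0342), the latter call lost without estradiol 2, tamoxifen 2 or either alpelisib library. Pdk4 was low in both groups and did not pass (-0.24 ± 0.13, adjusted p = 0.19).

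With both drugs against estradiol, 6 of the 10 were higher and 1 lower, beside 15.7% and 37.5% of all genes (53.2% called). Ccng2, Txnip and Pdk4 were higher by 1.80 ± 0.21, 1.68 ± 0.18 and 1.12 ± 0.13 (adjusted p from 0.000751 to 0.00105). Pdk4 was under 1 FPKM with estradiol and was tested only through vehicle and the alpelisib libraries, so a difference was built into its being tested. Fbxo32, Sesn1 and Foxo1 were higher by 0.60, 0.52 and 0.40 (adjusted p = 0.0103, 0.0254 and 0.0376). Sesn3 was lower (-0.76 ± 0.17, adjusted p = 0.0117), a call lost under both scalings. Without either alpelisib library only 3 of the 7 calls were left, Ccng2, Txnip and Pdk4. Foxo3 and Pik3ip1 differed by -0.02 and -0.05, with 95% intervals from -0.62 to 0.58 and from -0.56 to 0.47. In the estradiol comparison with vehicle, the Sesn3 rise (0.82 ± 0.21, adjusted p = 0.0279) was lost without estradiol 2 and under both scalings. The Sesn1 fall (-0.59 ± 0.18, adjusted p = 0.0468) was lost without any 1 of the 6 treated libraries.

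Across the 7 libraries the 10 transcripts did not follow a single pattern. Correlations of log2(FPKM + 1) over 7 libraries are descriptive, since the points share group means and library composition. Of 45 pairs, 7 had a Pearson r of at least 0.8 and 8 were below 0, with a median of 0.46. Foxo1 and Foxo4 had r = 0.96, Pdk4 and Sesn1 0.95, and Foxo1 and Sesn1 0.90. Foxo1 and Foxo3 had r = 0.21. Txnip ran with Ccng2 (0.83) and against Sesn3 (-0.73).

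**Figure D4:**
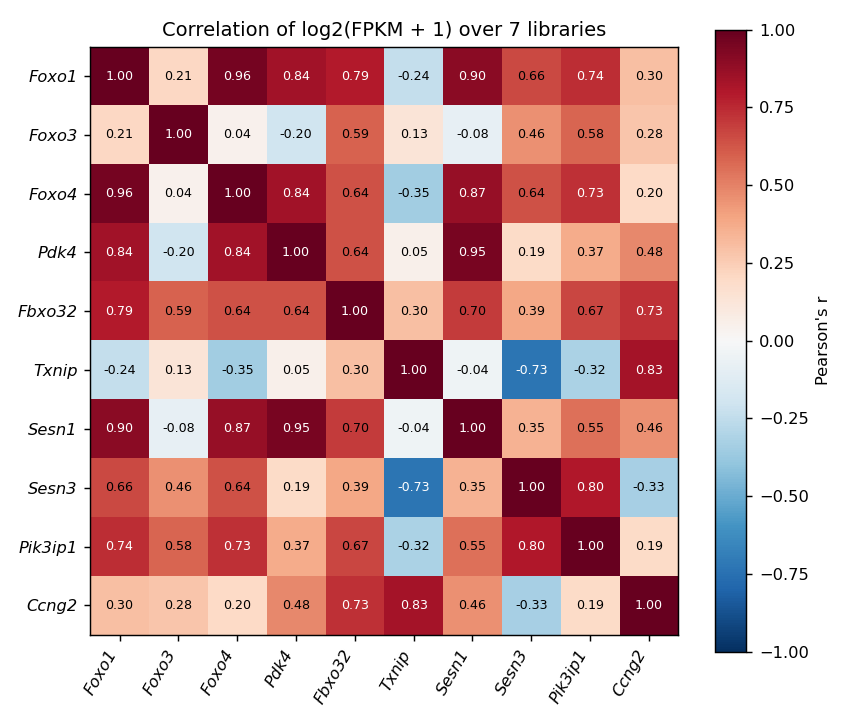
Pearson's r between the 10 transcripts over 7 libraries, on log2(FPKM + 1). Foxo1, Foxo4, Pdk4 and Sesn1 form a red set with r from 0.84 to 0.96, Foxo3 is pale with all of them, and Txnip is blue with Sesn3.

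The genes most like a member in pattern were sought among 6436 or 6437 others with a mean of at least 5 FPKM. For Foxo1 the closest were Arid5b (r = 0.987), Skil, Chd1, Plekhf2 and Ablim1. Arid5b had 14.4 FPKM in vehicle, against 4.31 and 4.52 under tamoxifen and 12.6 and 13.4 under both drugs. For Pdk4 they were Klf16 (r = 0.997), Trim16, Ppbp, Elmsan1 and Nr1d2, the last a circadian nuclear receptor with 14.8 FPKM in vehicle, 3.42 and 3.82 under tamoxifen, and 11.8 and 12 under both drugs. For Foxo3 they were Apobec1 (r = 0.989), Mylip, Plekha7, Ttc5 and Zfyve1. For Txnip they were Mprip (r = 0.997), Dynlrb1, Adam33, Kap and Gfra4, of which Kap was listed at 0 in vehicle and in both estradiol libraries. For Pik3ip1 they were Glul (r = 0.992), Klf10, Spata6, Bgn and the mesothelial marker Msln.

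A list of 37 other FOXO-induced genes had 35 members tested. With alpelisib added to tamoxifen 12 rose and 1 fell, beside the 6.93% and 4.81% of all genes, and the list's median difference was 0.58 against -0.03 over all genes. The phosphatase gene Ctdsp2 rose from 11.9 and 14.4 to 35.7 and 34 FPKM (1.35 ± 0.14, adjusted p = 0.00554). The mitophagy receptor Bnip3 rose from 5.34 and 8.12 to 22 and 25.5 (1.70 ± 0.23, adjusted p = 0.00977), the autophagy gene Gabarapl1 from 25.2 and 31.6 to 75.2 and 76.1 (1.39 ± 0.21, adjusted p = 0.013), and Klf6 from 109 and 142 to 344 and 346 (1.46 ± 0.21, adjusted p = 0.0108). Without either alpelisib library 0 of the 35 passed, and without tamoxifen 1 only 2 did.

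Ddit4, an inhibitor of mTORC1 that also answers to hypoxia and glucocorticoids, was the 1 listed gene that fell (-1.03 ± 0.23, adjusted p = 0.0408), from 165 and 240 to 99.9 and 93.7 FPKM. It had risen with tamoxifen from 17.7 in vehicle (3.42 ± 0.29, adjusted p = 0.000434). Against vehicle, tamoxifen lowered 11 of the 35 and raised 4, with a median of -0.39 against -0.12 over all genes. These stand beside 24.1% of all genes lower and 14.9% higher. The lowest p among them belonged to Irs2 (-1.86 ± 0.16, adjusted p = 0.000434), Ddit4, Tnfsf10 and Ctdsp2. Irs2 was at 3.34 FPKM in vehicle and under 1 in the other 6 libraries, so it was tested only through its high group and its fall was built into that. Both drugs against vehicle gave 7 higher and 4 lower, with a median of -0.02 against -0.15, beside 13.1% and 21.8% of all genes. These counts were 3 and 2 without either alpelisib library, and 8 and 2 with a median of 0.15 under median-of-ratios scaling. Estradiol against vehicle gave 7 higher and 6 lower, with a median of -0.13 against 0.12, beside 22.7% and 12.8% of all genes. The estradiol counts were 4 and 4 without either alpelisib library, and 5 higher and 9 lower under median-of-ratios scaling.

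**Figure D5:**
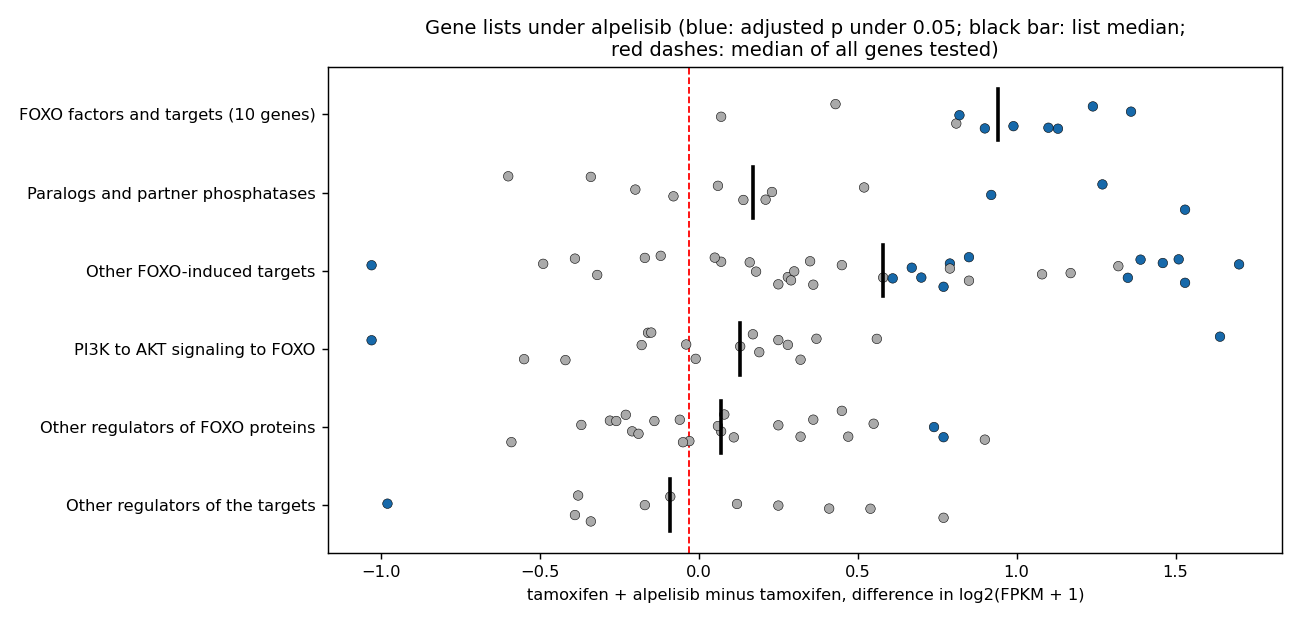
Difference in log2(FPKM + 1) between both drugs and tamoxifen for each tested gene of 6 lists; blue marks an adjusted p under 0.05, black bars are list medians and the red dashed line is the median of all genes at -0.03. The bars of the 10 FOXO genes and of the other FOXO-induced genes stand at 0.94 and 0.58, and those of the other 4 lists between -0.09 and 0.17.

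Of the kinases and lipid phosphatases upstream of FOXO, 17 were tested. With alpelisib added, 1 rose and 1 fell, near the 6.93% and 4.81% of all genes, with a median difference of 0.13. Sgk1, a kinase that phosphorylates FOXO at AKT sites, rose from 6.77 and 12.6 to 29.6 and 32.4 FPKM (1.64 ± 0.26, adjusted p = 0.0155). The regulatory subunit gene Pik3r3 fell from 8.92 and 7.82 to 3.47 and 3.66 (-1.03 ± 0.16, adjusted p = 0.0142). Both calls were lost without either alpelisib library, and that of Pik3r3 also without tamoxifen 1. With tamoxifen against vehicle 3 of the 17 rose and 3 fell, close to the 14.9% and 24.1% of all genes. With estradiol 6 rose and 0 fell, beside 22.7% and 12.8% of all genes. The estradiol count depended on the scaling, with 3 higher and 2 lower under median-of-ratios scaling and 3 and 1 under quantile normalization, and it was 2 and 0 without either alpelisib library. The falls with tamoxifen numbered 1 without either alpelisib library.

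Among 24 tested regulators of FOXO proteins (14-3-3 proteins, deacetylases, acetylases, ubiquitin enzymes and stress kinases), 2 rose with alpelisib, the ubiquitin ligase Mdm2 (0.74 ± 0.14, adjusted p = 0.0246) and the methyltransferase Setd7 (0.77 ± 0.13, adjusted p = 0.0194). The count of 2 higher and 0 lower stands beside 6.93% and 4.81% of all genes and is near the background. With tamoxifen 5 of the 24 fell and 0 rose, a share of falls no higher than the 24.1% of all genes, and 4 fell and 2 rose under median-of-ratios scaling. Those that fell included the deacetylases Sirt1 and Sirt2 (-1.20 each, ± 0.15 and ± 0.20). Of those 5 falls, 3 were left without either alpelisib library. Of 11 tested p53, glucose and lipid sensing regulators of the targets, 1 fell with alpelisib, the p53 target Phlda3 (-0.98 ± 0.20, adjusted p = 0.0306). In that list 0 rose, and both counts stand beside the same shares of all genes. Calls of Mdm2, Setd7 and Phlda3 were lost without either alpelisib library or either tamoxifen library. Cdkn1a, a shared p53 and FOXO target, was at 45.9 and 70.9 FPKM with tamoxifen and 95.1 and 101 with both drugs, and did not pass (0.77 ± 0.27, adjusted p = 0.119).

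Markers of other cells also differed between groups, and not all in the direction of these transcripts. The counts below stand beside 6.93% of all genes higher and 4.81% lower with alpelisib added, and 24.1% lower with tamoxifen against vehicle. Of 4 mesothelial markers, 3 rose with alpelisib and 0 fell, and their sum was 22.8 FPKM in vehicle, 31.8 and 29.7 with estradiol, 9.62 and 12.1 with tamoxifen, and 29 and 26.9 with both drugs, an order close to that of Pik3ip1. Of 11 stromal markers, 3 rose and 1 fell with alpelisib, and 11 fell with tamoxifen against vehicle. Of 6 smooth muscle markers, 4 fell with alpelisib and 0 rose, with sums of 74.1 FPKM in vehicle, 22.6 and 20.1 under tamoxifen, and 17.1 and 18.1 under both drugs. Of 7 endothelial markers 2 fell and 0 rose with alpelisib, and of 5 leukocyte markers 1 fell and 0 rose. Of 4 erythroid markers 2 fell with alpelisib, and the whole list summed to 22.4 FPKM in vehicle, 1020 and 701 under tamoxifen, and 190 and 199 under both drugs. Markers defining fat cells, Plin1, Lep and Cidec, were listed at 0 in every library, while Fabp4, the 1 tested gene of that list, fell with alpelisib. Skeletal muscle markers summed to at most 3.82 FPKM, with 0 of 2 tested passing for alpelisib. The part of mesothelial, stromal and blood cells in the differences of the 10 transcripts was not tested.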

How the data were processed

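The authors deposited 1 table of FPKM with 1 column per library. CASAVA, Bowtie and Cufflinks are named without versions, per the submitters' processing notes, and the only build named there is hg19, although the samples and symbols are mouse. The unit was taken from Cufflinks being named and from the values, which are not whole numbers and sum to different totals. Depth was estimated with GENCODE mouse transcript lengths. Strand use and the handling of reads shared between genes are not given in the sources used here. Genes with at least 1 FPKM in at least 1 library (12314 of 24353) were tested with limma-trend 3.58.1 in R 4.3.3 on log2(FPKM + 1). The fit had a mean per group and 7 libraries, so 3 degrees of freedom were residual, with 3.27 added by the prior, with Benjamini-Hochberg adjustment within each of 6 comparisons at 0.05. The single vehicle library is assumed to vary like the other groups. P-values compare each difference with a spread estimated from the 3 groups of 2 libraries and, through the prior, from all genes. The vehicle library adds nothing to that spread. The method was tested on simulated data that gave each gene the same normal spread in every group, so the simulation did not check unequal spread between groups. Spread did differ for some genes. The SD of Txnip was 24.5 FPKM with tamoxifen and 1.72 with both drugs, and that of Ccng2 was 3.49 and 0.844. For Foxo4 it went the other way, at 0.146 and 0.345. The fit uses 1 shared spread per gene for all groups. The 10 genes, the lists, the motifs and the rules were chosen with earlier results of these data known. Named beside the 10 were paralogs, up to 4 called genes of lowest p per list and comparison, not all of which are given, 5 genes of highest correlation for each of 5 members, and a few genes chosen after their values were seen (Cdkn1a, Ccng1 and markers). Alternatives were other scalings, filters, pseudocount, robust empirical Bayes, only the compared groups, a replicate block and each library left out. Figures used Python 3.11.15 and matplotlib 3.10.9.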

Additional observations from a re-analysis of the deposited data

How the results depend on the processing

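Of 839 values of the 10 genes over the alternatives, 720 kept their direction and side of the threshold, 91 lost a call, 9 gained a call and 19 changed sign. None of those 19 passed in the main analysis or in the alternative. The mouse numbers name separate animals. Deviations of same-numbered mice correlated at -0.40 between estradiol and tamoxifen, -0.18 between estradiol and both drugs, and 0.27 between tamoxifen and both drugs. With so few mice per group, these correlations cannot decide whether libraries of the same number belong together. With a replicate block and vehicle left out, 3 of the 10 genes passed for alpelisib added to tamoxifen, in place of 7, with 5.03% of all genes called in place of 11.7%. It gave 5 in place of 6 for tamoxifen against estradiol and 6 in place of 7 for both drugs against estradiol. No paired analysis was possible for vehicle because its 1 library carries no number.

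With no filter on low values 3 of the 10 passed for alpelisib added to tamoxifen, where 18198 genes were tested and 4.78% called, and 2 in place of 4 for estradiol against vehicle. With only the compared groups in the fit, 2 passed for estradiol against vehicle. Leaving out 1 library at a time gave 0 to 7 for alpelisib added to tamoxifen, 4 to 7 for tamoxifen against vehicle, 2 to 3 for estradiol against vehicle, 3 to 5 for both drugs against vehicle, 4 to 6 for tamoxifen against estradiol and 3 to 7 for both drugs against estradiol. Leaving out 1 treated library leaves 2 of the 3 residual degrees of freedom, and leaving out vehicle keeps all 3.

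Changes of sign were as follows. Txnip for alpelisib added to tamoxifen was -0.13 without tamoxifen 1. For both drugs against vehicle, Foxo4 was 0.10 and Sesn1 0.07 with median-of-ratios scaling, Foxo4 0.06 and Sesn1 0.09 with quantile normalization, and, with 1 library left out at a time, Sesn1 ranged from -0.20 to 0.07 and Sesn3 from -0.01 to 0.13. With quantile normalization Fbxo32 was 0.00 and -0.08 for tamoxifen and estradiol against vehicle, and Foxo4, Fbxo32 and Sesn1 were 0.02, 0.08 and 0.09 for tamoxifen against estradiol. For both drugs against estradiol, Foxo3 was 0.30 and Pik3ip1 0.24 with median-of-ratios scaling, 0.12 and 0.26 with quantile normalization, and with 1 library left out at a time Foxo3 ranged from -0.32 to 0.28 and Pik3ip1 from -0.31 to 0.21. The causes were not tested. Values under about 1 FPKM rest on few fragments, which limits Pdk4 most.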
